A study of Arabidopsis thaliana with 26 samples.

Results

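The core and linker histone genes described here are 8 Arabidopsis genes: the histone H2B genes HTB1, HTB2, HTB11, AT2G37470 and AT2G28720, the linker histone H1 gene AT1G06760, the histone H3 gene AT1G09200 and the histone H4 gene AT1G07820. Every probe set that the platform annotation pairs with one of them was taken, which gave 16 of the 22810 probe sets in the table, and all 16 passed the filter on low values. The 5 H2B genes and AT1G06760 each had a probe set of their own. By that annotation AT1G09200 did not: 5 probe sets were each annotated to the same 5 H3.1 genes, AT1G09200 among them. AT1G07820 did not either: 5 probe sets were each annotated to the same 8 H4 genes. These 10 shared probe sets are named by their identifiers. The annotation does not tell which of the genes each one measures, so they are not taken as 10 separate genes.

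RNA of Arabidopsis thaliana leaves, accession Col-0 (stock N1092), was hybridised to Affymetrix ATH1 arrays. The plants grew on Humax compost at 20 °C and 50% humidity with 10 h of light a day. All 7 groups were under ambient CO2 and ambient light. Of the 26 arrays, 24 held developing leaves of insertions 19 to 21, 4 for each of the times 2, 4, 12, 24, 48 and 96 h. The remaining 2 held mature leaves taken at 24 h. The labels do not say whether replicates came from separate plants, so the p-values reflect only how much these samples varied, which may be technical. The hour of the day at which the count of hours began is not given either.

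Core histones form the protein spool around which DNA winds in the nucleosome: pairs of H2A with H2B, and of H3 with H4. Linker histone H1 binds the DNA where it enters and leaves that spool. Most core histone transcripts of plants and animals accumulate while cells replicate DNA, in S phase, and the H3.1 form of H3 is laid down then, whereas the H3.3 form is also laid down outside replication. In young leaves, cells still divide and replicate DNA, and in mature leaves most have stopped.

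Array medians lay between 40.7 and 47.0 in intensity, the mean r between arrays within a group was 0.967 to 0.981, and no arrays held identical values. Of the leaf mesophyll markers, RCA (Rubisco activase) was measured, at a mean log2 level of 11.3 to 12.5 in the 7 groups, and the meristem marker CLV3 stood at 2.80 to 3.00, close to the level of log2 2.12 that an intensity of 0 would give. The other meristem marker measured, LAS, passed the filter, with a mean log2 level of 5.42 over the 26 arrays. Levels are log2 values of intensity with a pseudocount of 4.35 added, with the standard deviation (SD) between arrays. Folds are differences of these levels with the standard error (SE) of a limma fit over all arrays, and a probe set is said to have risen or fallen where its adjusted p was under 0.05. Folds on this scale understate the change of weak signals, and levels of different probe sets cannot be set against each other.

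All 16 probe sets differed among the 6 times in developing leaves, where 62.4% of all probe sets tested did. Most histone probe sets were high at 2 and 4 h, low at 12 h, partly or not at all recovered at 24 h, and lower again at 96 h. In mature leaves 14 of the 16 were far below developing leaves. The H2B gene AT2G28720 and the linker histone gene AT1G06760 took another course, described after the others.

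HTB1 codes for a core histone H2B. Its intensity was 440, 514, 572 and 585 on the 4 arrays at 2 h and 588, 516, 586 and 659 at 4 h. It was 313, 248, 239 and 288 at 12 h, below every array of the first 2 times. The 24 h arrays gave 360, 308, 394 and 305, the 48 h arrays 266, 295, 348 and 344, and the 96 h arrays 234, 235, 249 and 182. The mature arrays gave 66.4 and 60.9, far below all 24 developing arrays. The log2 fold was -0.95 ± 0.12 (adjusted p = 3.4e-07) at 12 h against 2 h, -1.22 ± 0.12 (7.2e-09) at 96 h against 2 h and -2.34 ± 0.14 (2.0e-13) in mature against developing leaves at 24 h, the last a 5.06-fold difference. From high to low, its level ran 4 h, 2 h, 24 h, 48 h, 12 h, 96 h and mature. Of neighbours in that order, 2 h and 24 h differed, as did 96 h and mature, and no other neighbours passed the test.

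HTB2, another H2B gene, had intensities of 302, 248, 239 and 373 at 2 h and of 199, 158, 233 and 141 at 12 h. Its arrays at 24 h spread widely, with 389, 156, 217 and 192. That group overlapped with 2 h, and the log2 fold of 24 h against 2 h, -0.35 ± 0.20 (adjusted p = 0.23), did not pass; without replicate 1 at 24 h it was -0.61 and passed (0.014). At 48 h the intensities were 145, 170, 137 and 129, below every array at 2 h. The mature arrays gave 32.3 and 46.8, and HTB2 was 5.28-fold lower there than in developing leaves at 24 h (log2 fold -2.40 ± 0.24, adjusted p = 2.6e-09).

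HTB11, also an H2B gene, fell early and changed less after 12 h. Its intensities were 441, 511, 382 and 476 at 2 h, then 236, 223, 220 and 230 at 12 h. They were 269, 250, 259 and 256 at 48 h, and 205, 209, 239 and 183 at 96 h. The arrays at 12 h were all below those at 2 h, and those at 96 h overlapped with those at 12 h. Every array at 96 h was below every array at 48 h. Its log2 folds of 12, 24, 48 and 96 h against 2 h were, in that order, -0.97, -1.04, -0.79 and -1.10, each ± 0.10, and each passed the test. No pair of neighbours among its levels at 48, 12, 24 and 96 h differed, and 48 h and 96 h are not neighbours in that order. In mature leaves, at 74.2 and 72.7, it was 2.84-fold lower than in developing leaves at 24 h.

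AT2G37470 had the largest fall of the H2B members at 12 h. Its intensities went from 319, 348, 255 and 299 at 2 h to 153, 92.9, 99.3 and 116 at 12 h, a log2 fold of -1.39 ± 0.14 (adjusted p = 1.1e-08). They were 164, 151, 142 and 128 at 24 h, which overlapped with 12 h through 1 array. The log2 fold of 24 h against 12 h, 0.36 ± 0.14, was close to the threshold (adjusted p = 0.049), and it did not pass without any 1 of 6 of the 8 arrays. The mature arrays gave 39.9 and 51.3, 3.03-fold below developing leaves at 24 h.

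**Figure D1:**
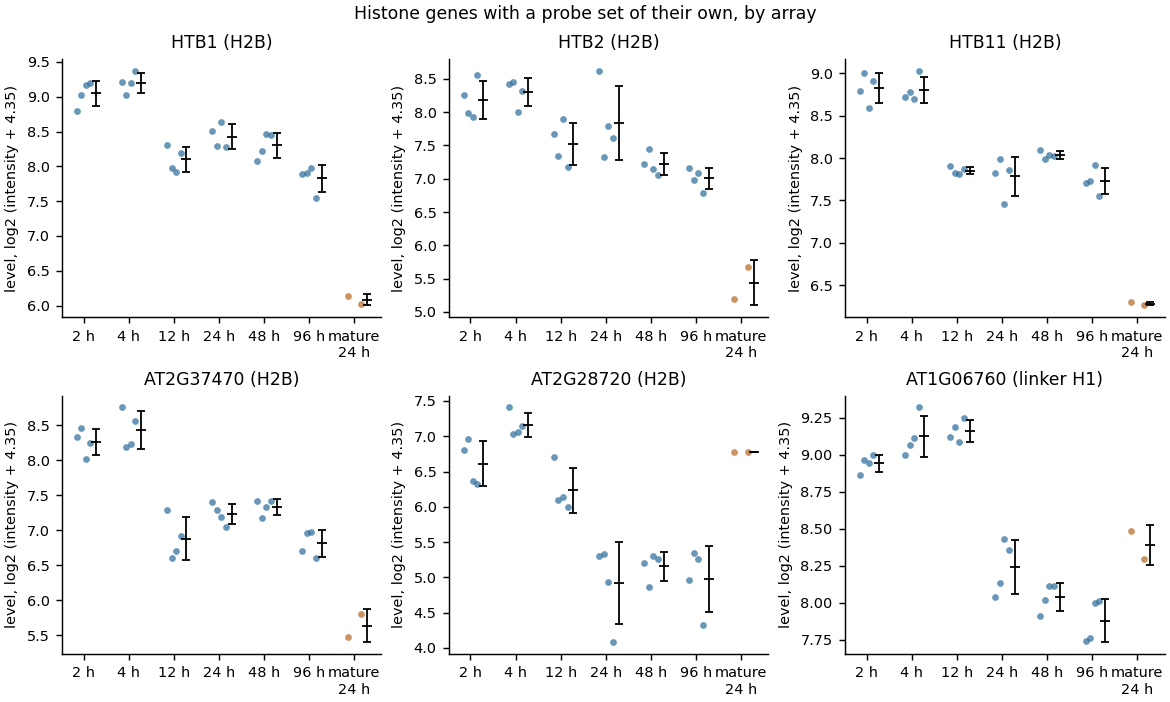
Each panel shows 1 histone gene with a probe set of its own; the vertical axis is the level, log2 of intensity plus 4.35, and the horizontal axis the 7 groups. Points are arrays (blue developing, brown mature) and bars the mean ± SD; each panel has its own range. HTB1, HTB2, HTB11 and AT2G37470 were lowest in mature leaves, where AT2G28720 stood at 6.77 and AT1G06760 at 8.39.

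The 5 H3.1 probe sets moved together and recovered in part at 24 h. Probe set 250433_at had intensities of 526, 510, 502 and 547 at 2 h and of 153, 148, 170 and 166 at 12 h. It stood at 364, 243, 238 and 286 at 24 h and at 171, 159, 170 and 138 at 96 h. The arrays at 24 h were thus all above those at 12 h and all below those at 2 h. Its log2 fold was -1.69 ± 0.17 at 12 h against 2 h, a 3.22-fold fall, and 0.79 ± 0.17 at 24 h against 12 h (adjusted p = 3.8e-04).

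Probe set 247192_at, with the smallest fall of the 5 at 12 h, gave 1382, 1409, 1588 and 1501 at 2 h. It gave 766, 743, 884 and 833 at 12 h and 1361, 1212, 1325 and 1098 at 24 h. At 24 h it did not differ from 2 h by the test (-0.24 ± 0.11, adjusted p = 0.13), while the other 4 H3.1 probe sets were still lower than at 2 h, with log2 folds of -0.98 to -0.69. With quantile normalization 247192_at was lower at 24 h as well (-0.39, adjusted p = 0.0090). By 96 h it had returned to 788, 869, 859 and 744, overlapping with 12 h. The mature arrays gave 173 and 251, 5.87-fold below developing leaves at 24 h.

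All 5 H3.1 probe sets fell at 12 h against 2 h, all 5 rose at 24 h against 12 h, and all 5 fell at 96 h against 24 h. Their median log2 folds in these comparisons were -1.30, 0.63 and -0.59. In mature leaves all 5 fell, with log2 folds from -2.55 to -2.26. The mature arrays of 250433_at gave 30.9 and 80.3, and its log2 fold was -1.74 without the first and -3.00 without the second. With 1 array left out, the fold of 257714_at ran from -2.54 to -1.98 and that of 247192_at from -2.81 to -2.29.

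The 5 H4 probe sets fell at 12 h as well, but most of them did not rise at 24 h. Probe set 251924_at gave 1106, 1060, 1147 and 1258 at 2 h, 806, 729, 705 and 861 at 12 h, 749, 679, 702 and 603 at 24 h, and 507, 557, 576 and 455 at 96 h. It thus stepped down, with every array at 12 h below 2 h and every array at 96 h below 24 h. Probe set 252562_s_at had the largest fall of the 5, from 673, 550, 476 and 463 at 2 h to 290, 160, 150 and 191 at 12 h, a log2 fold of -1.46 ± 0.20 (adjusted p = 1.4e-06). In mature leaves it was at 21.2 and 43.2, the first below the intensity of 27.5 that corresponds to the filter, and 6.78-fold below developing leaves at 24 h. That log2 fold was -2.76 ± 0.24, and it was -2.31 without the first of these arrays and -3.21 without the second.

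At 24 h against 12 h, 1 of the 5 H4 probe sets rose, 247692_s_at (0.28 ± 0.10, adjusted p = 0.031). Its arrays at 24 h gave 2201, 1462, 1456 and 1698, and the call did not pass without any 1 of 5 of the 8 arrays. Without the first of these the log2 fold was 0.15 (0.18), with quantile normalization 0.058 (0.60) and with array weights 0.16 (0.14). The median of the 5 H4 probe sets was -0.03 in this comparison and that of the 5 H3.1 probe sets 0.63. On each array the mean H4 level was taken from the mean H3.1 level, and the difference was counted from its mean at 2 h. It lay between -0.786 and -0.096 at 12 h and between -0.069 and 0.336 at 24 h. The arrays at 12 and 24 h did not overlap, but each group overlapped with 2 h, at -0.099 to 0.102. This difference of class means is given without a test.

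**Figure D2:**
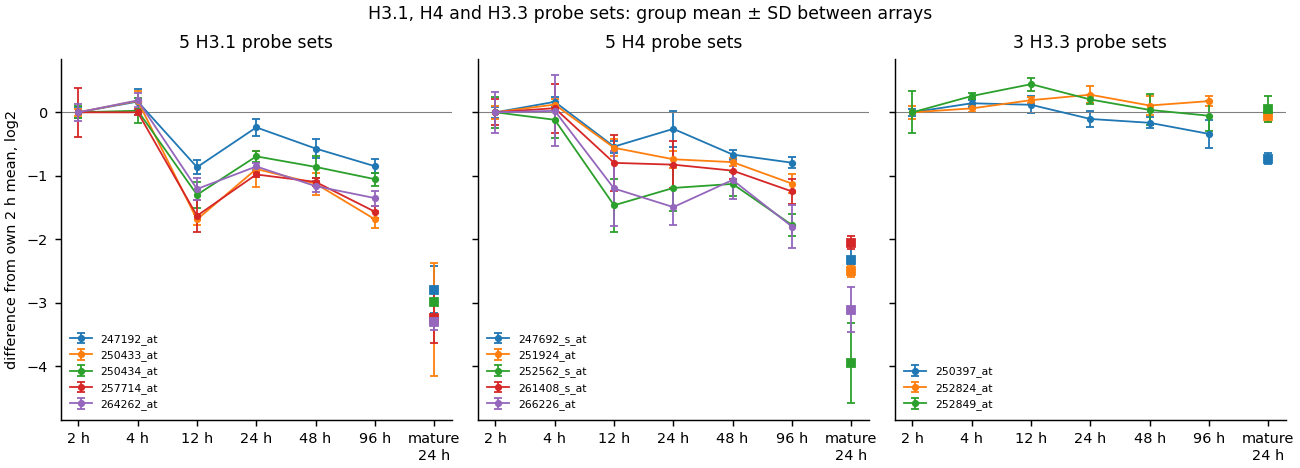
The vertical axis is the difference of each group's mean level from the same probe set's mean at 2 h, in log2 units; the horizontal axis gives the 7 groups, bars are the SD between arrays, and squares are mature leaves. All H3.1 and H4 probe sets dropped at 12 h and were lowest in mature leaves, and the 3 H3.3 probe sets stayed between -0.73 and 0.44 of their 2 h level.

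Counted over all 16 probe sets, none fell or rose at 4 h against 2 h, where 0.996% of all probe sets fell and 1.34% rose. The log2 folds of the 16 ran from -0.12 to 0.55. At 12 h against 2 h, 14 of 16 fell and none rose, beside 18.6% and 20.6% of all probe sets. The median log2 fold was -0.96 over the 16 and 0.04 over all probe sets. The 2 that did not fall were AT2G28720, at -0.38 ± 0.23 (adjusted p = 0.20), and AT1G06760, at 0.22 ± 0.09 (0.061).

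At 12 h against 4 h, 15 of 16 fell and none rose (17.5% and 21.7% of all probe sets), AT1G06760 being the exception. At 24 h against 12 h, 8 rose and 2 fell, where 17.6% of all probe sets rose and 20.7% fell. The 8 were the 5 H3.1 probe sets, the H4 probe set 247692_s_at, HTB1 and AT2G37470, and the 2 were AT2G28720 and AT1G06760. The 5 H3.1 probe sets passed with any 1 array left out, and HTB1 (0.32 ± 0.12, adjusted p = 0.031) did not pass without any 1 of 4 of the 8 arrays. Without replicate 1 at 24 h or replicate 2 at 12 h, 5 of the 16 rose. The histone probe sets therefore did not move one way as a group between 12 and 24 h.

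At 24 h against 2 h, 13 of 16 fell and none rose, where 10.8% of all probe sets fell and 10.1% rose. HTB2, 247192_at and 247692_s_at were the 3 that did not pass. With quantile normalization the last 2 of these passed, 247692_s_at at -0.57 (adjusted p = 1.2e-05) in place of -0.26. With array weights, or without replicate 1 at 24 h, HTB2 and 247692_s_at passed, and each of these settings gave 15 of 16. At 48 h against 2 h all 16 fell, with a median log2 fold of -0.92, where 12.7% of all probe sets fell and 11.2% rose. At 96 h against 2 h all 16 fell too, with a median of -1.23, beside 22.7% that fell and 19.1% that rose.

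Between 24 and 48 h no member passed the test, as for nearly all probe sets (0.139% fell and 0.176% rose); with 1 array left out, 0 to 104 of all 13648 passed here, in place of 43. At 96 h against 24 h, 12 of 16 fell and none rose, where 8.84% fell and 8.40% rose, and the 4 that did not pass were HTB11, AT2G28720, 261408_s_at and 266226_at. Of the 12, 252562_s_at did not pass without any 1 of 6 of the 8 arrays, AT2G37470 without any 1 of 5 and 250434_at without either of 2, and 9 to 12 fell with 1 array left out. At 96 h against 48 h, 3 fell and none rose (1.31% and 2.13% of all probe sets). The comparisons with 2 h share the same 4 arrays, and so do those with 24 h.

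Averaging the 5 H3.1 and the 5 H4 probe sets on each array, so that the shared probe sets count as 2 members and the total is 8, was chosen after the data had been seen. Of these 8, 6 fell at 12 h against 2 h, 7 at 24 h and 8 at both 48 and 96 h. At 24 h against 12 h, 3 rose and 2 fell. The H3.1 average was at -1.34 ± 0.09 and the H4 average at -0.91 ± 0.13 at 12 h against 2 h.

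Mature leaves were compared with developing leaves of the same time, 24 h. Of the 16 probe sets 14 fell and 1 rose, where 37.6% of all probe sets fell and 24.1% rose. The median log2 fold was -2.16 over the 16 and -0.15 over all probe sets. The log2 folds of the 14 ranged from -2.76 to -1.23. Fewer cells with a transcript and less of it per cell cannot be told apart in whole leaves. With 2 mature arrays, the estimate of the spread used in this comparison came mostly from the developing groups, while the mature mean rests on these 2 arrays.

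AT2G28720 codes for an H2B and went the other way in mature leaves. Its intensities were 107, 120, 78.2 and 75.6 at 2 h, 166, 126, 129 and 137 at 4 h, and 100, 63.9, 66.1 and 59.8 at 12 h. They were then 35.3, 35.9, 26.3 and 12.6 at 24 h, 32.6, 24.7, 35.3 and 33.8 at 48 h, and 26.9, 36.3, 34.1 and 15.7 at 96 h. Both mature arrays gave 105. Every array at 24, 48 and 96 h was thus below every array at 2, 4 and 12 h, and both mature arrays were above every array of the 3 later times.

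The log2 fold of AT2G28720 was -1.32 ± 0.23 (adjusted p = 4.6e-05) at 24 h against 12 h and 1.86 ± 0.28 (2.3e-06) in mature against developing leaves at 24 h, a 3.63-fold difference. Its order of levels was 4 h, mature, 2 h, 12 h, 48 h, 96 h and 24 h, and 12 h and 48 h were the only neighbours that differed. The signal at 24 h lay close to the filter, which corresponds to an intensity of 27.5.

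The difference in level between 2 H2B genes on each array was compared between each of 4 later times and 2 h, for all 10 pairs of the 5 H2B genes, of which 4 hold AT2G28720. For 4 against 4 arrays the 2-sided exact permutation test cannot give a p under 0.0286, and 7 of the 40 tests gave it. Of these 7, 6 involved AT2G28720: against AT2G37470 and HTB11 at 12 h, AT2G37470 and HTB1 at 24 h, and AT2G37470 and HTB11 at 48 h. Relative to AT2G37470 it lay 1.01 log2 units higher at 12 h than at 2 h, and 0.66 lower at 24 h. The lowest p after adjustment over the 40 tests was 0.152, so no pair of H2B genes passed. A pair could pass only if many of the 40 tests reached the smallest p, so this does not show that the genes moved alike.

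In mature against developing leaves at 24 h, the level of AT2G28720 minus that of HTB1, HTB2, HTB11 or AT2G37470 was higher by 4.20, 4.26, 3.36 or 3.46 log2 units. In each of these 4 pairs both mature arrays were above all 4 developing arrays. The 2-sided exact permutation test gave p = 0.133 for each, which is the smallest it can give with 2 against 4 arrays, and 0.133 after adjustment over the 4 tests.

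AT1G06760 codes for a linker histone H1. Its intensities were 461, 494, 487 and 508 at 2 h, 506, 532, 549 and 634 at 4 h, and 553, 577, 538 and 604 at 12 h. They were 259, 277, 341 and 324 at 24 h, 237, 256, 273 and 273 at 48 h, and 210, 213, 251 and 253 at 96 h. The mature arrays gave 354 and 310. All arrays at 12 h were above all at 2 h, and every array from 24 h on was below every array of the first 3 times.

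The log2 fold of AT1G06760 was 0.22 ± 0.09 at 12 h against 2 h, which did not pass (adjusted p = 0.061), and -0.92 ± 0.09 at 24 h against 12 h (7.1e-09). With quantile normalization, the replicate block, array weights, the actin ratio as a covariate or only the groups compared, the first of these passed, with an adjusted p of 0.021 to 0.035. In mature against developing leaves at 24 h it was at 0.15 ± 0.11 (0.26) and the groups overlapped, while against 2 h it was lower in mature leaves (-0.55 ± 0.11, adjusted p = 1.1e-04). Its order was 12 h, 4 h, 2 h, mature, 24 h, 48 h and 96 h, and 2 h and mature were the only neighbours that differed.

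After these values had been seen, the level of AT1G06760 minus that of each H2B gene was tested on each array at the 4 later times against 2 h. At 12 h it was 0.60 to 1.61 log2 units higher than at 2 h relative to the 5 H2B genes, and for 4 of the 5, all but AT2G28720, the exact permutation test gave its smallest p of 0.0286. After adjustment over these 20 tests that p was 0.095, so none passed. Passing would again need many tests at the smallest p, so this does not show that the levels moved alike. At 24 h the difference was -0.35 to 1.00 and at 48 h -0.16 to 0.55, of either sign, and at each of these times 1 pair, that with AT2G28720, reached the smallest p. At 96 h it was 0.04 to 0.58, and no pair did.

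**Figure D3:**
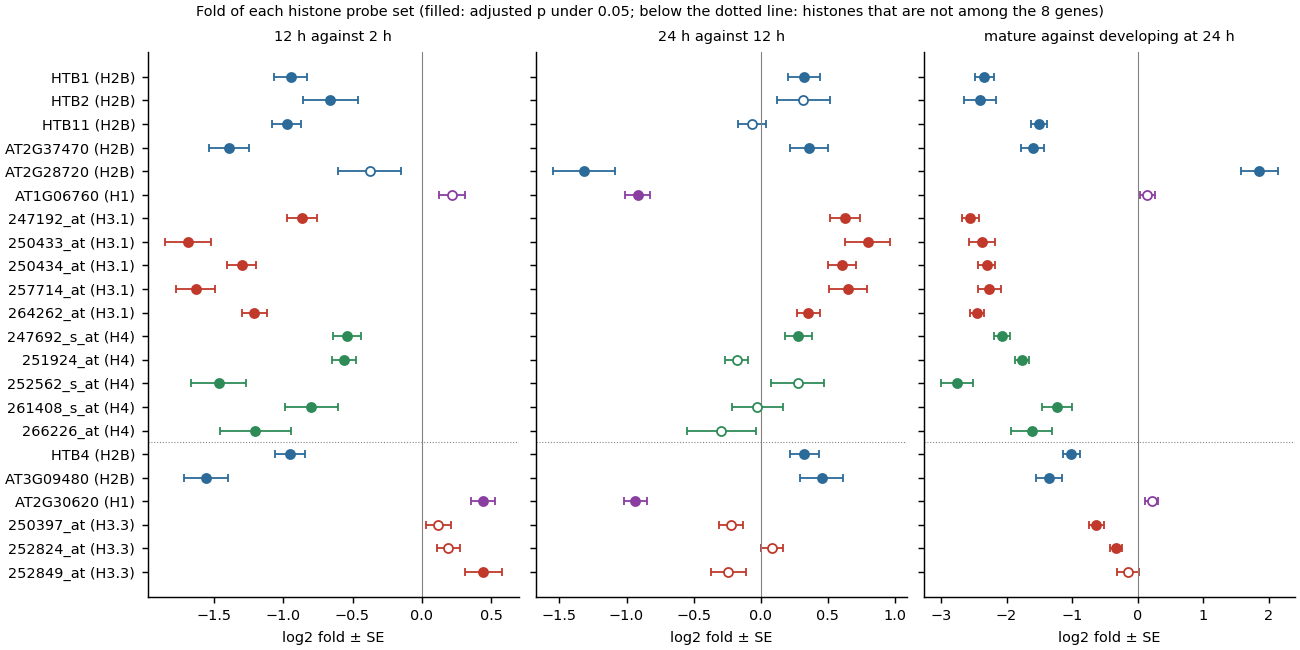
Points are log2 folds with their SE in 3 comparisons, 1 row per histone probe set; filled points had an adjusted p under 0.05, colours mark the histone class, and histones outside the 8 genes stand below the dotted line. At 12 h against 2 h, 14 of 16 fell; at 24 h against 12 h the H3.1 probe sets rose while AT2G28720 and AT1G06760 fell; in mature leaves AT2G28720 rose.

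Correlations of levels across the 24 developing arrays are given as a description, since arrays of the same time are alike. AT2G28720 and AT1G06760 were set apart from values of these same arrays, so their r is no separate evidence. The ranges of r given next overlap. Among the 14 probe sets other than AT2G28720 and AT1G06760, the 91 pairs had a Pearson r of 0.66 to 0.97 with a median of 0.88. AT2G28720 had a median r of 0.74 with those 14 (0.55 to 0.89) and AT1G06760 a median of 0.58 (0.38 to 0.80). The r between AT2G28720 and AT1G06760 was 0.81. The probe sets shared by the H3.1 or by the H4 genes may hybridise with the same transcripts, which raises r among them.

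Other histone genes, from a list outside the 8, had 15 probe sets, of which 7 passed the filter. The H2B genes HTB4 and AT3G09480 fell at 12 h against 2 h, at -0.95 ± 0.11 and -1.56 ± 0.16, rose at 24 h against 12 h, at 0.32 ± 0.11 and 0.45 ± 0.16, and fell in mature leaves, at -1.01 ± 0.13 and -1.35 ± 0.20. AT3G09480 passed the filter through 2 and 4 h, at mean levels of 6.10 and 6.11. Its mean intensity was 19.3 at 12 h, 27.7 at 24 h and 8.30 in mature leaves, beside 27.5 for the filter, and its folds after 4 h rest on signals near or below the filter. HTR12, the centromeric H3 variant, was at -0.44 ± 0.18 at 12 h against 2 h (adjusted p = 0.058) and fell in mature leaves (-1.01 ± 0.22, 3.5e-04). AT1G08170, AT5G02570, AT1G13370, 262979_s_at, MGH3, AT1G75600, AT5G12910 and the linker histone HIS1-3 did not pass the filter. Of 13 histone H2A genes listed, none was paired with a probe set in the annotation used here, so H2A was not measured.

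The H3.3 forms differ from H3.1 by a few residues, and 3 probe sets were each annotated to the H3.3 genes AT5G10980, AT4G40040 and AT4G40030. Probe set 250397_at gave 1316, 1214, 1273 and 1317 at 2 h and 1421, 1558, 1260 and 1333 at 12 h, which overlapped. At 12 h against 2 h the log2 folds of the 3 were 0.12, 0.19 and 0.44, of which the last, 252849_at, rose (adjusted p = 0.0090). At 96 h against 2 h 1 of the 3 fell, 250397_at, at -0.34 ± 0.09. In mature against developing leaves at 24 h they were at -0.63, -0.33 and -0.15, and the first 2 fell.

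On each array the mean H3.1 level minus the mean H3.3 level, counted from its mean at 2 h, lay between -0.13 and 0.11 at 2 h and between -1.73 and -1.44 at 12 h. It lay between -0.93 and -0.80 at 24 h, between -1.13 and -0.81 at 48 h and between -1.40 and -1.13 at 96 h. On the mature arrays it was at -3.03 and -2.72. The groups at 12, 24, 48 and 96 h did not overlap with 2 h, nor the mature arrays with any other. These differences of class means are descriptions and were given no test.

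The second linker histone gene measured, AT2G30620, followed a course like that of AT1G06760. Its intensities were 498, 576, 563 and 582 at 2 h, 852, 730, 652 and 795 at 12 h, and 369, 389, 404 and 407 at 24 h. At 12 h it was above every array at 2 h, and at 24 h below every one of them. It rose at 12 h against 2 h (0.44 ± 0.08, adjusted p = 1.4e-04), fell at 24 h against 12 h (-0.94 ± 0.08, 1.2e-09), and did not pass in mature against developing leaves at 24 h (0.22 ± 0.10, 0.074).

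Few genes that work beside histones could be followed. Of 13 histone chaperone genes 2 were measured, ASF1B and SGA2, which code for ASF1-type chaperones of H3 and H4. Of 19 replication genes 4 were measured: PRL, a subunit of the replicative helicase, ICU2, the catalytic subunit of DNA polymerase alpha, POLA3, its primase subunit, and PSF2, of the GINS complex. Of 17 mitosis genes 7 were measured.

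At 12 h against 2 h, when 14 of the 16 histone probe sets fell, 3 of the 4 replication genes fell, POLA3 at -1.23 ± 0.11, PRL at -1.10 ± 0.11 and ICU2 at -0.64 ± 0.14. Of the 7 mitosis genes 1 fell, the spindle checkpoint gene BUB3.1 (-0.67 ± 0.12), and 2 rose, the Aurora kinase genes AUR2 (0.50 ± 0.16) and AUR1 (0.47 ± 0.11). Neither chaperone gene passed. Of all probe sets, 18.6% fell and 20.6% rose here. At 24 h against 12 h, when the 5 H3.1 probe sets rose, 3 of the 4 replication genes rose and 5 of the 7 mitosis genes fell. Of all probe sets, 17.6% rose and 20.7% fell in that comparison.

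At 48 h against 2 h, ASF1B fell (-0.71 ± 0.14), 2 of the 4 replication genes fell, PRL at -0.56 ± 0.11 and PSF2 at -0.54 ± 0.13, and 4 of the 7 mitosis genes fell. These were the chromosome-binding protein gene 3xHMG-box2 (-1.03 ± 0.15), BUB3.1 (-0.78 ± 0.12), the checkpoint gene BUBR1 (-0.70 ± 0.14) and the topoisomerase II gene TOPII (-0.54 ± 0.18). Of all probe sets 12.7% fell at 48 h against 2 h. In mature against developing leaves both chaperone, all 4 replication and all 7 mitosis genes fell, beside 37.6% of all probe sets. At 4 h against 2 h, where no histone probe set passed, 5 of the 7 mitosis genes rose and no replication gene did, beside 1.34% of all probe sets. From 4 h to 12 h, 4 of the 7 mitosis and 3 of the 4 replication genes fell and none rose, where 17.5% of all probe sets fell.

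**Figure D4:**
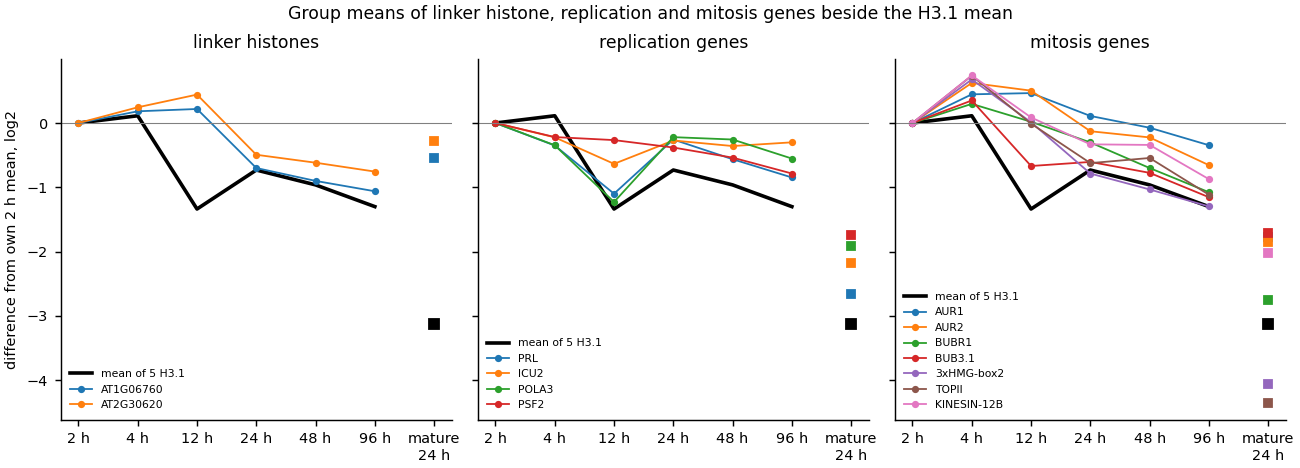
The vertical axis is the difference of each group's mean level from the gene's own mean at 2 h, in log2 units, over the 7 groups on the horizontal axis, with squares for mature leaves. The thick black line is the mean of the 5 H3.1 probe sets. PRL and POLA3 dipped at 12 h with it (-1.10 and -1.23 against 2 h). Neither linker histone fell then against 2 h, nor did most mitosis genes, though 4 of these 7 fell at 12 h against 4 h.

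The genes most like each histone probe set were ranked by Pearson r of log2 levels over the 26 arrays, among 7435 probe sets that name 1 gene and no histone. For HTB1 the first was AT1G23410 (r = 0.98), for HTB2 AT3G53740 (0.95), for HTB11 AT5G09510 (0.95) and for AT2G37470 NRPB12 (0.97), which codes for a subunit shared by nuclear RNA polymerases. For the H3.1 probe set 247192_at it was AT4G29410 (0.99) and for 264262_at AT4G12600 (0.99). AT1G23410 and AT4G12600 were each among the first 3 of 3 histone probe sets. For AT2G28720 the first was AT5G62350 (0.91), followed by AT4G36010 and AT3G51660 (0.90 each), and for AT1G06760 FTSZ2-1 (0.94), a plastid division gene. In the 26 arrays the 2 mature arrays weigh heavily, and over the 24 developing arrays alone the r of these first genes was between 0.90 and 0.97.

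Some values of RNA quality changed between times at which the histones changed, and SPCH, a marker of other cells, was lower in mature leaves. The ratio of the 3 prime over the 5 prime control probe set of actin, in log2, which rises as RNA is shortened from its 5 prime end, averaged 2.66 ± 0.15 (SD, n = 4) at 2 h. It was 2.68 ± 0.11 at 4 h, then 2.09 ± 0.37 at 12 h, and its lowest mean was 1.53 ± 0.50, at 96 h. The 2-sided exact permutation test gave p = 0.0571 for 12 h and 0.0286 for 96 h against 2 h, and no adjusted p over 30 such tests was under 0.286. With this ratio as a covariate, 14 of the 16 still fell at 12 h against 2 h, 16 at 48 h and 16 at 96 h, and the median log2 fold was -0.98, -0.91 and -1.21. With the covariate 10 in place of 12 fell at 96 h against 24 h, AT2G37470 and 250434_at no longer passing, and 7 in place of 8 rose at 24 h against 12 h. The ubiquitin ratio was 1.64 at 2 h, 1.63 at 12 h and 1.17 at 96 h. That of GAPDH was 0.31 at 2 h, 0.56 at 12 h and 0.15 at 96 h. The GAPDH ratio was thus higher at 12 h than at 2 h, where the actin ratio was lower. SPCH, which starts the stomatal lineage in dividing epidermis, had a mean log2 level of 6.76 in developing and of 2.76 in mature leaves at 24 h (fold -3.99 ± 0.25, adjusted p = 3.6e-13), and FMA, of the same lineage, was at 6.03 and 5.68 (adjusted p = 0.13). The mature level of SPCH was near the 2.12 that an intensity of 0 would give. Among the 6 developing times, a limma F-test did not pass for SPCH (adjusted p = 0.093), FMA (0.88) or LAS (0.21). For RCA it passed (0.0011). The part of stomatal lineage cells in the mature comparison was not tested.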

How the data were processed

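The authors deposited 1 MAS5 intensity per probe set and array, per the submitters' processing notes; MAS5 settings and version are not given in the sources used here. The values were linear, and each array had the same 2% trimmed mean. That scaling was kept. The 64 AFFX controls were left out, levels were log2 of intensity plus 4.35 (10% of the median of all values), and probe sets under the 40th percentile of mean log2 were left out, leaving 13648. limma 3.58.1 (R 4.3.3) fitted all 26 arrays in 7 groups with an intensity trend; p-values were adjusted by Benjamini-Hochberg over these 13648 in each comparison, threshold 0.05. Exact permutation tests used SciPy 1.17.1. The fit was tested on simulated data.

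Probe sets were named through the platform annotation and RefSeq symbols of TAIR10.1. The members and lists were chosen with earlier results of these data known. Named genes were all members, the measured other histones, per member the 3 most correlated genes (the text names the first of most), and up to 4 passing genes of each other list at 12 and 48 h against 2 h. In the replication list, the POLA3 locus was corrected and 1 gene added after the lists had been written. The tests of AT1G06760 against H2B genes, of AT2G28720 in mature leaves and the class means were chosen after values were seen. Alternatives covered pseudocount, filter, trend, quantile normalization, replicate block, array weights, the actin ratio, only the groups compared and each array left out. The number of arrays limits precision.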

Additional observations from a re-analysis of the deposited data

Results flagged for a closer look

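Among 23 histone probe sets, 138 groups of 4 arrays were screened for an array far from the other 3, and 8 had one; chance alone marks about 1 in 20 groups. The values are log2 levels. Of the H3.1 probe sets, 250434_at stood at 10.03 on replicate 1 at 4 h, with the next array at 9.68. Probe set 257714_at stood at 7.47 on replicate 3 at 2 h, with the next at 8.19, and at 8.12 on replicate 4 at 4 h, with the next at 8.03. Of the H4 probe sets, 266226_at stood at 7.84 on replicate 3 at 2 h, with the next at 8.44, and at 6.80 on replicate 2 at 48 h, with the next at 7.36. Outside the 8 genes, HTB4 stood at 8.67 on replicate 1 at 12 h, with the next at 8.37. AT3G09480 stood at 4.84 on replicate 1 at 24 h, with the next at 5.04. HTR12 stood at 6.13 on replicate 3 at 4 h, with the next at 5.77.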

How the results depend on the processing

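No fold of a histone probe set reversed its direction as a call under any alternative. The number of members that rose at 12 h against 2 h was 0, and 1 (AT1G06760) with quantile normalization, the replicate block, array weights, the actin ratio or only the groups compared. At 24 h against 12 h, 2 fell, but 1 with the 60th percentile filter, which removed AT2G28720, and 3 with quantile normalization, which added 251924_at (-0.25, adjusted p = 0.014); with 1 array left out it was 2 to 3. In the same comparison 8 rose, but 5 with only the groups compared, 7 with quantile normalization, 7 with the actin ratio and 5 to 7 with 1 array left out. With no filter AT2G37470 and 247692_s_at did not pass there. AT2G37470 also did not pass with a pseudocount of 50% of the median or with no trend, nor 247692_s_at with array weights. In mature leaves 1 rose, but 0 with the 60th percentile filter and 2 with the replicate block. At 48 h against 24 h, 0 to 1 fell with 1 array left out. The number that fell at 24 h against 2 h was 12 to 15 and at 96 h against 24 h 9 to 12 over all settings. Where the cause is not named, it was not tested. Over all probe sets, 319 passed at 4 h against 2 h but 567 with array weights; 43 passed at 48 h against 24 h, but 28 with no filter, 21 with no trend, 171 with array weights, 95 with the actin ratio, 1 with only the groups compared, 0 without replicate 1 at 24 h or replicate 3 at 48 h, 4 without replicate 4 at 48 h, 18 without replicate 1 at 48 h, 12 without replicate 3 at 24 h and 104 without replicate 2 at 24 h; 2354 passed at 96 h against 24 h, but 1378 with only the groups compared.

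Replicate numbers recur across groups, but same-numbered arrays deviated together with an r over 0.1 in every pair in none of the 10 comparisons, so they were not taken as pairs. At 12 h against 4 h all 4 arrays correlated best with their own number, with an r of 0.096 to 0.384. At 4 h and at 48 h against 2 h, 3 of 4 did, and in the other comparisons fewer did. A partial pairing is thus not excluded. Adding the replicate block moved the call of 2 of 160 folds, AT1G06760 at 12 h against 2 h (0.22, adjusted p = 0.021) and in mature leaves (0.23, 0.037).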
